A study of Danio rerio with 6 samples.

Results

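Solitary persisting CTCF sites are places in the zebrafish genome where a CTCF peak was listed in wild-type (WT) embryos and again in ctcf-/- embryos, with no second site of that kind nearby. A site here joins peaks that overlap, and it needed a peak from both replicates of a group. A WT site at 48 hours post-fertilization (hpf) was called persisting when it overlapped a ctcf-/- site of the same stage by at least 1 bp, and solitary when the next persisting site lay more than 10 kb away. By this rule 650 sites were chosen out of 23959 WT sites at 48 hpf. Another 148 persisting sites had a persisting neighbour within 10 kb and are called clustered. The remaining 23161 WT sites, which overlapped no ctcf-/- site, are called depleted. Depleted sites were not all without a mutant peak: one was listed at 555 of them in ctcf-/- replicate 1 and at 648 in replicate 2. The rule used the WT 48 hpf and ctcf-/- peak lists, so the values from those 4 libraries describe the chosen sites and are given without a test.

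CTCF is a zinc-finger protein that binds DNA at a long, specific motif in vertebrates. At many of its sites it halts the cohesin complex as cohesin extrudes loops of chromatin, and the halted loops mark the boundaries of topologically associating domains, within which enhancers and promoters contact each other most often. In cultured mammalian cells depleted of the protein, a minority of sites, often the strongest, can keep a CTCF signal after most have lost it.

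CTCF was profiled by ChIPmentation, a chromatin immunoprecipitation whose captured chromatin is cut and tagged for sequencing by a transposase, Tn5. There were 6 libraries from whole embryos, 2 in each of 3 groups: WT embryos of 24 hpf, WT embryos of 48 hpf, and 48 hpf embryos of genotype ctcf-/-. The ctcf-/- embryos carried a CRISPR deletion that leaves a premature stop codon, and since the mothers supplied CTCF to the egg, the mutants began development with the protein. The study no longer detected nuclear CTCF staining in ctcf-/- embryos at 24 hpf. Its western blot of 48 hpf mutants showed complete loss of the protein. Each library came from many pooled embryos, so a low signal in every cell and a high signal in a few cells cannot be told apart. The lists held between 1706 and 67512 peaks. Background depth, in tags per 10 kb, was 44.0 and 12.4 in the WT libraries of 24 hpf, 19.8 and 17.9 in those of 48 hpf, and 8.50 and at most 4.00 in ctcf-/-, so the mutant lists were the shallowest.

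The 10 kb limit had sites close to it on both sides. The members closest to it lay 10135 bp (chromosome 8, 34864671 to 34865323, danRer10) and 10294 bp (chromosome 21, 25805391 to 25805961) from another persisting site. The nearest sites left out lay at 9587 bp (chromosome 7, 52730538 to 52730835) and 9469 bp (chromosome 14, 38413800 to 38414213). Summit fragments in WT replicates 1 and 2 and ctcf-/- replicates 1 and 2 were 80, 52, 111 and 66 at the member on chromosome 8. They were 65, 45, 76 and 49 at the member on chromosome 21. Both members thus had more fragments in ctcf-/- replicate 1 than in either WT replicate. At the site left out on chromosome 7 they were 41, 29, 55 and 27, and at the one on chromosome 14 they were 64, 48, 18 and 8. These fragments include the local background, the level that MACS2 took around the peak. In ctcf-/- replicate 1 it was 121 and 125 times that of the genome at the members on chromosomes 8 and 21. At the sites left out on chromosomes 7 and 14 it was 43.6 and 2.82 times. Most members were far from this limit, with a median of 512066 bp to the next persisting site among the 630 that had one on the same sequence.

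The solitary sites were tall peaks in WT embryos and low ones in ctcf-/- embryos. The number of sequenced fragments piled up at each summit was recovered from the fold enrichment and p-value of the peak. Its median was 72 and 69 fragments in the WT 48 hpf replicates and 13 in each ctcf-/- replicate. The lowest, median and highest values were 9, 72 and 162 in WT replicate 1, and 7, 69 and 163 in replicate 2. In ctcf-/- they were 4, 13 and 111 in replicate 1, and 5, 13 and 101 in replicate 2. At 612 of the 650 sites both ctcf-/- counts lay under both WT counts, with no correction for the lower depth of the mutant libraries. Depleted sites had a median of 21 fragments in each WT 48 hpf replicate.

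**Figure D1:**
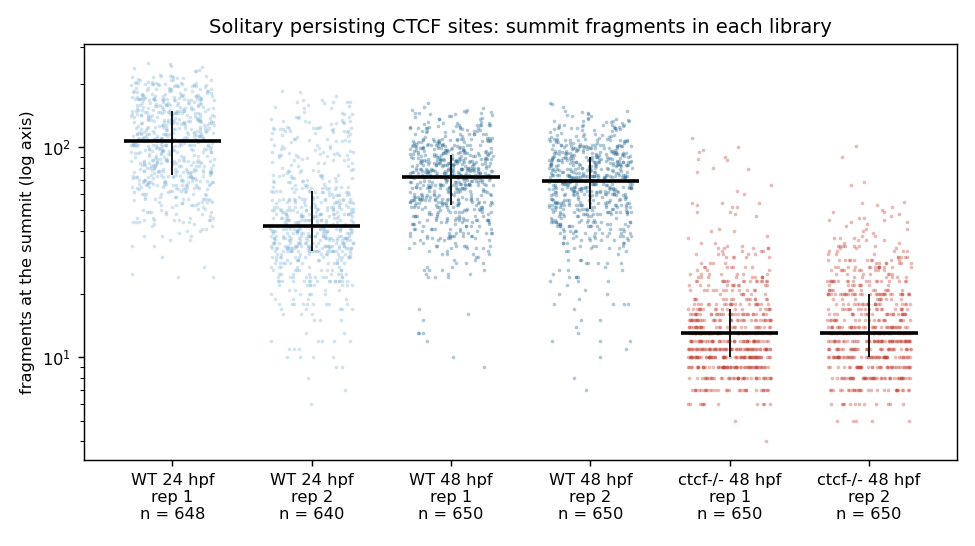
Fragments at the summit (log axis) of each solitary persisting site in the 6 libraries, uncorrected for depth; each point is a site, the thick bar is the median and the thin line the quartile range. The ctcf-/- points lie around a median of 13 fragments and the WT 48 hpf points around 72 and 69; the number of sites with a peak is given under each library.

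Many of the ctcf-/- peaks rested on few fragments. At least 10 fragments stood at the summit in both ctcf-/- libraries at 430 sites (66.2%), at least 20 at 92 sites (14.2%), and at least 50 at 9 sites (1.38%). The shortest pileup listed in either ctcf-/- library was 4 fragments. These counts are not corrected for depth, and the shallow ctcf-/- libraries could not have reached the WT counts at most members even with the whole signal kept.

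The chosen sites came mainly from the strong end of the WT list. Strength was taken as the percentile of fold enrichment within a library. Fold enrichment is the summit pileup over the local background, with a constant added to each. Of the 2396 WT sites in the strongest decile, 403 were solitary persisting sites (16.8%), and in the next decile 124 were (5.18%). In deciles 1 to 5, the weaker side of the list, there were 28 members in all. The median fold enrichment of the members was 21.2 in each of the WT replicates, against 11.2 and 11.3 at depleted sites.

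**Figure D2:**
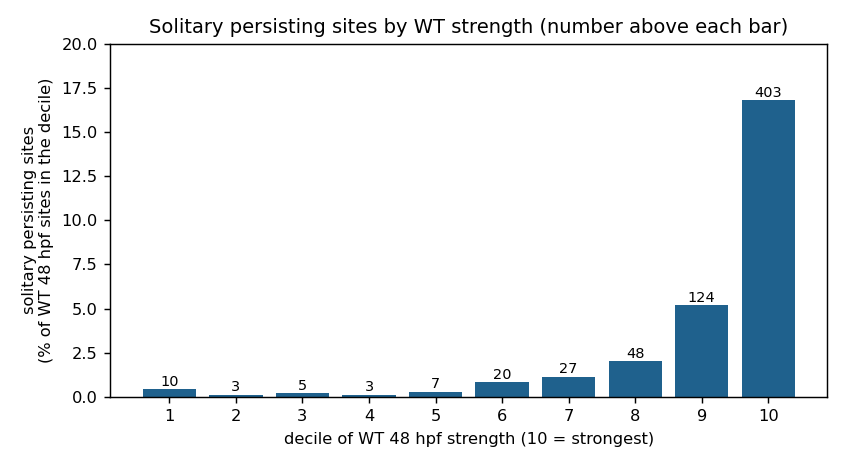
Solitary persisting sites as a percentage of the WT 48 hpf sites in each decile of WT strength, with their number above each bar. The share is 16.8% in the strongest decile and under 1% in deciles 1 to 6.

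How deep the ctcf-/- libraries were bears on which sites could be listed there. The signal of a site, if wholly kept, was taken as its WT signal above the local background, scaled to the background depth of the library. Its median was 33.8 fragments in ctcf-/- replicate 1 and at most 15.2 in replicate 2 at solitary sites. At depleted sites the same figure was 9.86 and at most 4.43. At least 8 fragments would stand at 62.9% of depleted sites in ctcf-/- replicate 1 but at no more than 19.6% in replicate 2. At solitary sites the shares were 98.9% and at most 91.2%. At least 5 would stand at 89.5% and at most 42.9% of depleted sites, and at 99.7% and at most 97.4% of solitary sites. The values of replicate 2 are upper limits, since its background is one. At this depth a fully kept signal at a weak WT site would often not have been detectable in replicate 2, so the place of the solitary sites at the top of the WT list and the depth of the mutant libraries cannot be told apart.

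WT embryos at 24 hpf give values that the rule did not use. Of the 650 solitary sites, 640 (98.5%) overlapped a site of both 24 hpf replicates, against 75.0% of all 23959 WT 48 hpf sites, 74.3% of depleted sites and 83.8% of clustered sites. A peak was listed for 648 members in 24 hpf replicate 1 and for 640 in replicate 2. Their median percentile of fold enrichment was 94.0 in replicate 1 and 94.1 in replicate 2. Depleted sites with a peak stood at medians of 74.8 and 61.8. Summit fragments of the members had a lowest, median and highest value of 24, 107.5 and 252 in replicate 1, and 6, 42 and 186 in replicate 2, the shallower of the pair. Nearly all solitary sites thus had a site in younger embryos as well, and their median rank was high there too.

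Part of that rank goes with WT strength at 48 hpf. Within the strongest WT decile all 403 solitary sites and 1972 of 1987 depleted sites (99.2%) had a site at 24 hpf. The members still ranked somewhat higher there, with medians of 96.4 and 96.8 in the 24 hpf replicates against 93.9 and 91.2 for depleted sites of that decile. In the next decile the medians were 90.7 and 90.0 for members and 87.1 and 81.2 for depleted sites. Members also had more WT 48 hpf signal within the strongest decile, so the decile did not make the groups equal. Scaled to ctcf-/- replicate 2, that signal would give at least 10 fragments at no more than 96.8% of members and 81.9% of depleted sites. Of the 1987 depleted sites of that decile, 187 had a peak listed in ctcf-/- replicate 1 and 229 in replicate 2. These are descriptions over sites, which share their libraries and are not replicates.

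**Figure D3:**
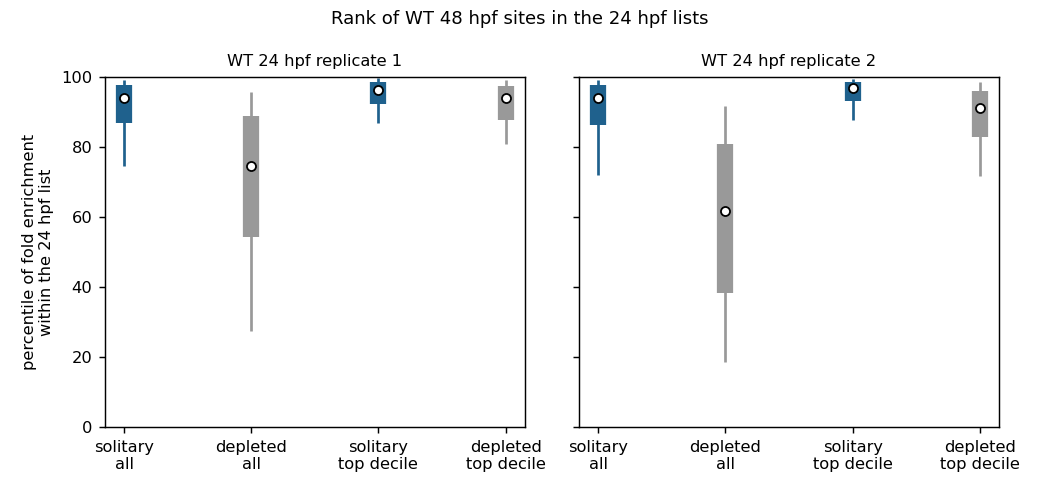
Percentile of fold enrichment within each 24 hpf list for solitary persisting and depleted sites, over all sites and within the strongest WT 48 hpf decile (sites with a peak in that list). The point is the median, the thick bar the quartile range and the thin line the 10th to 90th percentile. In the strongest decile the medians are 96.4 and 96.8 for solitary sites and 93.9 and 91.2 for depleted sites.

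No change in fold enrichment between 24 and 48 hpf was called at any solitary site. The difference was tested with limma, on quantile-normalized log2 fold enrichment, over the 17919 WT 48 hpf sites with a peak in all 4 WT libraries, 640 of them members. At a Benjamini-Hochberg adjusted p under 0.05, no site was called (0.00% of all fitted), and the lowest adjusted p was 0.573. At an unadjusted p under 0.05, 2 members were higher at 24 hpf (0.313%, against 4.40% of all sites) and 6 were lower (0.938%, against 3.87%). The median log2 difference of the members, 24 hpf minus 48 hpf, was -0.08, with quartiles of -0.22 and 0.08 and a median standard error of 0.27. Over all fitted sites it was -0.02. With WT 24 hpf replicate 1 left out the members' median was 0.03, and 137 sites were called, none of them a member. With WT 24 hpf replicate 2 left out the members' median was -0.15, against -0.04 over all fitted sites.

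In ctcf-/- embryos the deposited fold enrichment was lower at most members. A constant is added to both its pileup and its background, so a kept signal gives a lower value in a shallower library. How far depth set the fold enrichments below was not tested. Both ctcf-/- fold enrichments were under both WT values at 577 of the 650 sites (88.8%) and over both at 13 (2.00%). At the 148 clustered persisting sites they were under both at 33 (22.3%) and over both at 24 (16.2%). The median fold enrichment was 9.43 and 10.7 in the ctcf-/- replicates, and the median ratio to the WT mean at the same site was 0.48 and 0.56. Scaling the summit signal, after subtraction of the local background, by the genome background of each library gave a median ratio of 0.38 in ctcf-/- replicate 1 and at least 0.96 in replicate 2. The ratio in replicate 2 is a lower bound, because its background of 4.00 tags per 10 kb is an upper bound. The gap between the ctcf-/- libraries is therefore at least this wide, and its cause was not tested. The ratio reached 1 at 39 members (6.00%) in replicate 1, all of which reached it in replicate 2 too, and at 305 members (46.9%) or more in replicate 2. By this scaling replicate 2 does not show a lower signal at all members. Of the 39, 19 were in WT deciles 1 to 5 and 15 had a local background, the background level that MACS2 took around the peak, of 20 times that of the genome or more in ctcf-/- replicate 1.

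**Figure D4:**
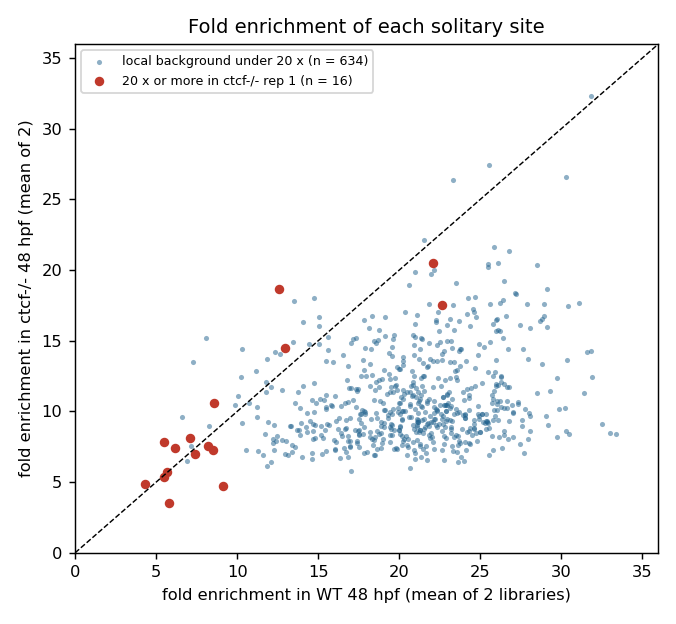
Mean fold enrichment of each solitary persisting site in WT at 48 hpf and in ctcf-/- at 48 hpf; each mean is over 2 libraries and the dashed line marks equality. Most points lie under the line, with 577 of 650 sites lower in both ctcf-/- libraries. Fold enrichment is not corrected for the lower depth of the ctcf-/- libraries. Red points are the 16 sites whose local background in ctcf-/- replicate 1 was 20 times that of the genome or more.

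Among the chosen sites, the order in WT carried over only weakly to the mutant. Across the 650 members, Spearman's rho of fold enrichment was 0.89 between the WT 48 hpf replicates and 0.50 between the ctcf-/- replicates. Between a WT 48 hpf and a ctcf-/- library it was 0.18 to 0.26, and between a 24 hpf and a 48 hpf WT library 0.59 to 0.69. Sites that share a library share its depth and background, and the ctcf-/- peaks rest on few fragments. The rule also asked for a peak in every WT 48 hpf and ctcf-/- list, which can narrow the range of values. How far this lowered rho was not tested.

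The 5 members that ranked highest in ctcf-/-, picked by their values there, had a deposited fold enrichment near that of WT. The first, on chromosome 18 from 13162195 to 13162424, had fold enrichments of 36.2 and 27.5 in the WT 48 hpf replicates, 35.9 and 28.8 in ctcf-/-, and 37.4 and 26.1 in those of 24 hpf. Its summit held 85 and 53 WT fragments at 48 hpf against 95 and 53 in ctcf-/-, so in these shallower libraries the pileup was at the WT count. Its WT 48 hpf peaks were 229 and 226 bp wide, against medians of 418.5 and 427.5 bp over all members. Its local background was 4.91 and 3.79 times the genome background in WT and 12.5 and 14.5 times in ctcf-/-. With no input control named, the local background comes from the same library over 10 kb. It can therefore include the fragments of the peak itself, here and at the other sites.

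The second, on chromosome 15 from 16387210 to 16387852, had fold enrichments of 25.1 and 26.0 in WT, 25.2 and 29.6 in ctcf-/-. The third, on chromosome 6 from 41538224 to 41538672, had 29.7 and 30.9 in WT and 26.9 and 26.2 in ctcf-/-. In both, WT pileups of 147 to 162 fragments faced ctcf-/- pileups of 47 to 68. The fourth, on chromosome 15 from 71449 to 71948, had 22.6 and 24.1 in WT and 24.3 and 28.5 in ctcf-/-, and the fifth, on chromosome 14 from 33145489 to 33146253, had 21.0 and 22.1 in WT and 21.4 and 23.0 in ctcf-/-. All 5 belonged to the strongest WT decile and had a site at 24 hpf. By the depth-scaled ratio of ctcf-/- to WT they were not all near WT. The first had 2.77 in ctcf-/- replicate 1 and at least 3.44 in replicate 2. The others had 0.73 to 0.79 in replicate 1 and lower bounds of 1.41 to 3.05 in replicate 2.

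The 5 members with the highest mean WT 48 hpf percentile were not among the 5 that ranked highest in ctcf-/-. In WT replicate 1 alone, the first ctcf-/- site had the highest fold enrichment of all members, at 36.2. The top site by the mean WT percentile lay on chromosome 23 from 6639743 to 6640134. It had fold enrichments of 33.9 and 32.9 in the WT 48 hpf replicates, 22.6 and 20.4 at 24 hpf, and 8.19 and 8.69 in ctcf-/-. Its WT summits held 121 and 108 fragments and its ctcf-/- summits 9 each. Next came a site on an unplaced scaffold from 39198 to 39538, with 33.6 and 32.4 in WT and 9.70 and 7.24 in ctcf-/-. None of the first 3 WT sites exceeded 12 fragments in a ctcf-/- library.

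The third lay on another unplaced scaffold from 6498 to 6902, with fold enrichments of 33.3 and 31.7 in WT and 10.2 and 8.03 in ctcf-/-. The fourth, on chromosome 17 from 3886022 to 3886381, had 31.9 and 31.8 in WT and 15.9 and 12.6 in ctcf-/-. The fifth, on chromosome 18 from 375999 to 376412, had 32.6 and 31.2 in WT and 10.5 and 14.3 in ctcf-/-. At each of these 5 sites the ctcf-/- values lay under the WT values, as at 577 of all 650 members (88.8%). The sites were picked for high WT values, and no member exceeded 29.6 in ctcf-/- replicate 2. For that library the lower value thus followed from the choice.

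The lowest ranks of fold enrichment in ctcf-/- belonged to sites of high local background, by which fold enrichment is divided. A low rank thus need not mean a low signal. Depth-scaled ratios of ctcf-/- to WT at the 3 lowest, in the order below, were 2.45, 3.77 and 0.88 in ctcf-/- replicate 1. In replicate 2 they were at least 2.38, 4.77 and 1.35. A site on an unplaced scaffold from 23543 to 23851 had fold enrichments of 4.86 and 6.70 in WT and 3.47 and 3.62 in ctcf-/-, and its local background in ctcf-/- was 128 and 107 times the genome background. The site on chromosome 8 from 34852170 to 34852790 had 4.17 and 4.46 in WT and 4.64 and 5.10 in ctcf-/-, with a local background of 155 and 165 times. The next, on an unplaced scaffold from 1304 to 2095, had 7.45 and 10.9 in WT and 4.14 and 5.37 in ctcf-/-, with 37.5 and 32.7 times. The first pair, with the site near the limit on chromosome 21 (125 times in ctcf-/- replicate 1), also had the highest local background of all members in that library.

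A local background this high was less frequent among solitary than clustered sites. By the rule, clustered sites have another persisting site within 10 kb, whose fragments can enter a background taken over 10 kb. That contrast may thus follow in part from the rule, and how far was not tested. In WT a background this high was more frequent among solitary than depleted sites. In ctcf-/- replicate 1 the local background reached 20 times that of the genome at 16 of 650 solitary sites (2.46%). It did so at 134 of 148 clustered sites (90.5%) and at 51 of the 555 depleted sites with a peak there (9.19%). The median local background was 3.06 times at solitary and 111 times at clustered sites. In WT replicate 1 at 48 hpf the medians were 8.53 and 40.7. There it reached 20 times at 3.85% of solitary, 79.7% of clustered and 0.557% of depleted sites, and at 1.14% of all WT sites. Without the 16 sites, a setting added after the data were seen, 634 solitary sites remained and 99.1% had a site at 24 hpf. The part of repeated sequence or copy number in the high background was not tested.

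At 13 members both ctcf-/- fold enrichments exceeded both WT values, and these sites were picked out after their values were seen. On chromosome 4 from 36113700 to 36114025 WT values of 8.60 and 5.90 at 48 hpf faced 17.1 and 9.86 in ctcf-/-, and the 24 hpf values were 15.2 and 6.67. On chromosome 23 from 3592918 to 3593238 they were 6.65 and 9.44 in WT and 19.9 and 10.5 in ctcf-/-. On chromosome 9 from 20173583 to 20173886 they were 6.64 and 6.57 in WT and 11.2 and 7.93 in ctcf-/-. Most of the 13 were weak WT sites, with 9 in deciles 1 to 5, and 6 of them reached a local background of 20 times that of the genome in ctcf-/- replicate 1. The site on chromosome 15 from 71449 to 71948 was the one among them in the strongest WT decile.

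Of the 10 members with no site at 24 hpf, picked out after their values were seen, 8 had a peak in replicate 1 of that stage and none had one in the shallower replicate 2. The pair with no peak in either list comprised a site on chromosome 20 from 55336459 to 55336992 and one on an unplaced scaffold from 2256 to 2695. The former had 44 and 18 WT fragments at 48 hpf, 23 and 11 in ctcf-/-, and lay 1189 bp from the last listed peak end of its chromosome. The latter had 30 and 20 fragments in WT and 49 and 14 in ctcf-/-. Another, on chromosome 15 from 47104810 to 47105022, had fold enrichments of 20.5 and 9.03 at 48 hpf in WT, 20.5 and 15.6 in ctcf-/- and 23.2 in 24 hpf replicate 1. None of the 10 was in the strongest WT decile, and 8 were in deciles 1 to 5.

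The solitary sites were spread over the whole genome. Every one of chromosomes 1 to 25 held between 18 and 40 of them, which was 1.98% (chromosome 16) to 3.58% (chromosome 14) of its WT sites, and 27 lay on 24 unplaced scaffolds. Of these 27, 18 were in the strongest WT decile and 24 had a site at 24 hpf. Clustered sites were absent from 7 of the 25 chromosomes.

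A larger share of them than of depleted sites lay near chromosome ends. Within 1 Mb of the start of a chromosome or of its last listed peak lay 91 of 623 members (14.6%), 1666 of 22736 depleted sites (7.33%) and 4 of 132 clustered sites. The share was also higher in the strongest WT decile, at 12.2% of members and 5.78% of depleted sites, and with limits of 0.5 Mb (9.47% and 4.65%) and 2 Mb (20.1% and 11.5%). Members near the ends had a median local background of 4.94 times the genome background in ctcf-/- replicate 1, against 2.88 for the other members, and a median fold enrichment of 9.71 against 9.34. In WT replicate 1 their fold enrichment was 19.7 against 21.5. The part of the local background in this pattern was not tested.

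**Figure D5:**
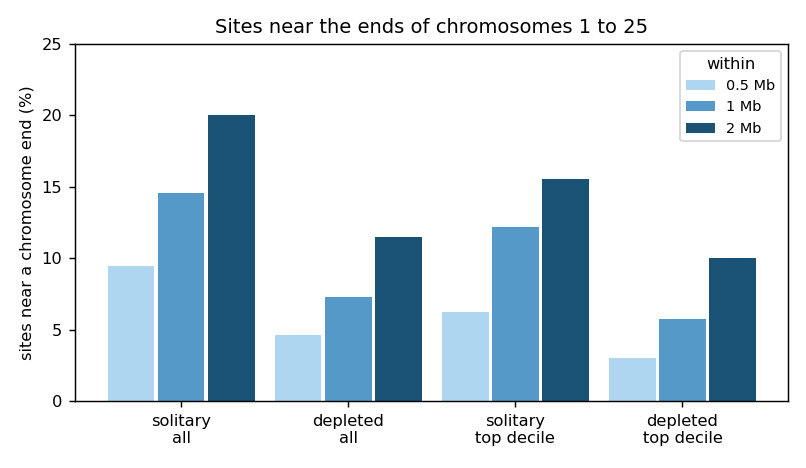
Percentage of sites on chromosomes 1 to 25 that lie within 0.5, 1 or 2 Mb of a chromosome end (position 0 or the last listed peak end), for solitary persisting and depleted sites, over all sites and in the strongest WT 48 hpf decile. Within 1 Mb the shares are 14.6% and 7.33% over all sites and 12.2% and 5.78% in the strongest decile.

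Being solitary among persisting sites did not mean standing alone in WT. The nearest other WT 48 hpf site lay at a median of 16194 bp (quartiles 6358 and 32442, n = 636), close to 15406 bp at depleted sites. Another WT site lay within 10 kb at 224 members (34.5%), against 35.4% of depleted sites. These 224 members had 290 such neighbours, all of them depleted by the rule, although 31 had a peak in 1 of the ctcf-/- lists. At 185 of the 224 the member exceeded its strongest neighbour in both WT replicates, at 20 the neighbour was stronger in both, and at 19 the replicates differed. Median fold enrichments were 19.2 and 18.7 for these members and 10.4 in each replicate for the neighbours. Members also exceeded depleted sites in median fold enrichment over the whole WT list, so this contrast is not particular to neighbours.

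The summits of a member's peaks lay close together in the libraries. The median distance between the summits of the WT 48 hpf replicates was 10 bp, and between the ctcf-/- replicates 26 bp. From WT replicate 1 to ctcf-/- replicates 1 and 2 it was 23.5 and 20 bp. The rule asked for overlapping peaks, so these short distances follow in part from it. To the 24 hpf summits it was 20 and 15 bp. The WT sites had a median width of 452 bp, against 314 bp at depleted sites and 394 bp at depleted sites of the strongest decile.

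The HoxD region holds the cluster of homeobox genes that pattern the body axis, fins and limbs, with its flanking regulatory landscape on chromosome 9. In the window of it that the study modeled, 3 of 30 WT 48 hpf sites were solitary persisting sites. Over all of chromosome 9 they were 22 of 928 (2.37%), and whether the window differs was not tested. The sites in the window were looked up after earlier results were known. The site from 2571406 to 2571732 was the strongest, with 68 fragments in each WT 48 hpf replicate, 13 in each ctcf-/- replicate, and 76 and 48 at 24 hpf. The site from 2280556 to 2280968 had 32 and 35 WT fragments at 48 hpf, 10 and 9 in ctcf-/-, and 71 and 26 at 24 hpf. The site from 1727465 to 1727768 had 49 and 35, then 8 and 14, then 61 and 18. All 3 had a site at 24 hpf, and at each the ctcf-/- fold enrichments lay under the WT 48 hpf values. Their depth-scaled ratios of ctcf-/- to WT, in the order given, were 0.38, 0.59 and 0.38 in ctcf-/- replicate 1 and at least 0.84, 1.20 and 1.52 in replicate 2, so by this scaling the replicates differed.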

How the data were processed

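Samples were grouped from their labels. Per the labels and the study's methods, the authors aligned paired reads with Bowtie2 to GRCz10 (danRer10), removed distant pairs and called peaks with MACS2 in each library at an FDR of 0.001; no input control is named. The deposited fold enrichment is a linear ratio, summit pileup over the background around it, with a constant added to each. The authors also deposited the −log10 p and −log10 q of each summit. The deposited score was not used. The lists hold no read counts.

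Overlapping peaks were merged, and a site needed a peak of each replicate. Whole fragments and local background were solved from fold enrichment and −log10 p (within 0.002 for 100% of peaks); the lowest background, over 10 kb, gave the relative depth. limma 3.58.1 in R 4.3.3 fitted WT 24 against WT 48 hpf, without a replicate block. Python 3.11.15 did the rest, tested on simulated data. With 2 libraries a group, an exact two-sided permutation test of 1 site cannot give a p under 0.333, so limma was the only test of sites.

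The members and lists were chosen with earlier results of these data known. Sites were named by rank: the 5 highest and 3 lowest in ctcf-/-, the 5 highest in WT, those nearest the 10 kb limit, those of highest local background and those with no 24 hpf peak. Others are marked in the text. Alternatives were −log10 q thresholds, overlap rules, distances, scalings and left-out libraries. No genome or gene annotation of this build was used here, so sequences, motifs and nearby genes are not given.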

Additional observations from a re-analysis of the deposited data

How the results depend on the processing

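The number of solitary sites depended on the peak threshold, the overlap rule and the ctcf-/- lists. It was 338 with −log10 q of at least 10, 430 with a reciprocal overlap of 50% and 1810 with a peak in either replicate, and with a library left out it ranged from 648 to 1267. Among the left-out libraries, the highest numbers came without ctcf-/- replicate 1 (1267) and without replicate 2 (1122). The share with a site at 24 hpf was 88.8% with the reciprocal overlap, 92.2% with summits within 100 bp and 99.7% with a peak in either 24 hpf replicate, and 95.5% to 99.7% with a library left out. The median percentile at 24 hpf, 94.0 over both libraries, was 94.2 and 95.3 with −log10 q of at least 5 and 10, 94.7 with the reciprocal overlap, 94.2 with summits within 100 bp, 90.7 with a peak in either replicate, 93.9 on chromosomes 1 to 25, 93.8 and 94.3 with distances of 5 and 30 kb, 96.1 by −log10 q, 94.2 without high local background and 91.5 to 94.1 with a library left out. The median distance to the nearest WT site was 19910.5 bp with −log10 q of at least 10, 10570.5 bp with a peak in either replicate and 12196 to 16939 bp with a library left out. The ratio of ctcf-/- to WT signal, at least 0.67 over both ctcf-/- libraries, was 0.38 to 0.94 over 14 alternatives, within the gap between those libraries. Among these the deposited fold enrichment, another measure, gave 0.52. The other values that include ctcf-/- replicate 2 are lower bounds. The cause of these shifts was not tested.

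In the stage comparison a replicate block gave 20 called sites, none a solitary one, and leaving out a WT library gave 0 to 137 (137 without 24 hpf replicate 1). Same-numbered WT replicates deviated together with a correlation of 0.01, so the numbers do not show a pairing. The planned motif share and gene-based site names were not run for want of a genome and annotation of the build. The ctcf-/- lists were the shallowest, and their peaks rest on few fragments; how far depth and lost signal each set those counts was not tested.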
